A study of Homo sapiens with 9 samples.

Results

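The guanylate-binding proteins GBP1, GBP2, GBP3, GBP4, GBP5 and GBP6 were followed through the RNA-seq of PARylator knockdown. They were taken by gene symbol from the deposited table, 1 row for each symbol, which gave 6 of the table's 60605 genes, and all 6 averaged 0.1 FPKM or more across all 9 libraries and so entered the test over 21397 genes. The cells were TE13, an established line of esophageal squamous cell carcinoma (ESCC), and PARylator is the study's name for the long noncoding RNA LINC00885. The transfected siRNA was a control, PARylator siRNA.1 or PARylator siRNA.2, and each of these conditions has 3 libraries that the submitters describe as biological replicates. All groups therefore share the cell line and a transfection with siRNA, no untransfected cells were analysed here, and siRNAs are numbered as in the labels. FPKM is the read count of a gene divided by the length of its exons and by all reads counted in that library.

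GBPs are large GTPases of the dynamin superfamily that interferons induce. Interferon-γ signals through JAK1 and JAK2 to factors that bind the GAS element, and interferon-β and the λ interferons signal through JAK1 and TYK2 to factors that bind the ISRE, STAT2 and IRF9 among them, which IRF1 also recognizes. GBP1 assembles on bacteria and damaged vacuoles in the cytosol, where it recruits GBP2, GBP3 and GBP4, and GBP2 and GBP5 inhibit the protease furin. GBP1, GBP2 and GBP5 end in a prenylation motif that anchors them in membranes, and the other family members described here do not.

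Total counts were between 15337917 and 17899074 in the control libraries, between 15374616 and 17762752 in those of siRNA.1, and between 19213164 and 22559998 in those of siRNA.2. Mitochondrial genes took 7.46% to 7.66%, 4.99% to 5.06% and 5.54% to 5.56% of them. Replicates were not copies of each other: chi-square over its degrees of freedom was 2.73 to 4.40 for pairs within a condition. LINC00885, the targeted gene, had between 6 and 12 counts with control siRNA, between 2 and 5 with siRNA.1 and at most 4 with siRNA.2 (0, in the lowest). Its log2 fold change of -1.21 (edgeR adjusted p = 0.376) and -2.33 (edgeR adjusted p = 0.0659) did not pass the threshold of 0.05. The counts are few, and the paper reports the knockdown from qPCR, a separate measurement. All 10 squamous epithelial markers, such as KRT5 and TP63, had a mean of at least 1 FPKM with control siRNA, against 1 of 12 markers of blood cells, 0 of 6 of endothelium and 1 of 6 of fibroblasts.

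The genes lie side by side on chromosome 1. In the deposited GRCh38 coordinates the stretch from the start of GBP3 to the end of GBP6 ran from 89006679 to 89388160, which is 381482 bases. It held GBP3 (ENSG00000117226, 89006679 to 89022894), GBP1 (ENSG00000117228, 89051882 to 89065360), GBP2 (ENSG00000162645, 89106132 to 89150456), GBP4 (ENSG00000162654, 89181144 to 89198942) and GBP5 (ENSG00000154451, 89258950 to 89272804) on the minus strand and GBP6 (ENSG00000183347, 89364059 to 89388160) on the plus strand. In GENCODE release 44 all are protein-coding, with canonical transcripts of 11 exons (12 for GBP5) and proteins of 586 (GBP5) to 640 (GBP4) amino acids.

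RefSeq promoter windows, from 250 bases before to 50 after the start of the gene on GRCh38.p14, were found for GBP1, GBP3, GBP4 and GBP6. They were searched on both strands for the core of the ISRE, which is GAAA followed by any 2 bases (NN) and a further GAAA and reads TTTC, NN, TTTC on the other strand, and for the GAS element, TTCNNNGAA. The ISRE core was present in the windows of GBP1, GBP3 and GBP4 and in 3.57% of all 35116 windows. The matches are shown with 10 bases on each side, 5′ to 3′ on the strand of the gene, with the motif in capitals, because GBP1 and GBP3 carry the same 10 letters.
GBP1, chr1:89065316-89065345, minus strand: aacgaagtacTTTCAGTTTCatattactct
GBP3, chr1:89022845-89022874, minus strand: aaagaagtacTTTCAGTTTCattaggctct
GBP4, chr1:89198927-89198956, minus strand: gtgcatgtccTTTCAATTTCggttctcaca
Counted from the RefSeq start as 1, with the base before it as -1, the match covered positions -127 to -118 in GBP1, 3 to 12 in GBP3 and -4 to 6 in GBP4. This start is also that of the canonical GENCODE transcript, but the deposited gene of GBP1 and of GBP3 begins further upstream, and from there the match covered positions 26 to 35 and 31 to 40. For GBP4 the starts are the same base. The GAS letters were present in the window of GBP3 and in 7.66% of all windows.
GBP3, chr1:89022862-89022891, minus strand: actgagtcacTTCCTTGAAagaagtacttt
This match lay at positions -15 to -7 from the RefSeq start and 14 to 22 from the deposited one, with the ISRE match just downstream of it. Neither set of letters was in the window of GBP6. Only exact letters were searched for. A window without them, as those of GBP1 and GBP4 for the GAS, may therefore still hold an element that differs from them.

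With control siRNA, GBP3 had the highest level of the family and GBP5 the lowest. The mean FPKM was 14.2 ± 0.290 (SD, n = 3) for GBP3, 6.52 ± 0.524 for GBP6, 3.89 ± 0.309 for GBP4, 3.85 ± 0.371 for GBP1, 1.01 ± 0.114 for GBP2 and 0.22 ± 0.05 for GBP5. GBP4 and GBP1 overlapped between libraries, and the other neighbours in this order did not. Of all tested genes, 84.5% had a lower control level than GBP3 and 16.7% a lower one than GBP5. With siRNA.1 the order was GBP3, GBP1, GBP6, GBP4, GBP5 and GBP2, in which GBP6 overlapped with GBP4 and GBP5 with GBP2. The order was the same with siRNA.2 and no neighbours overlapped.

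Against control siRNA, GBP1 and GBP5 rose most with both siRNAs, GBP3 and GBP4 rose by less, GBP2 fell with both, and GBP6 rose with siRNA.2 and did not pass the test with siRNA.1. By edgeR's quasi-likelihood test, adjusted over all tested genes, GBP1, GBP3, GBP4 and GBP5 (4 of 6) were higher and GBP2 lower with siRNA.1, where 15.0% of all tested genes were called higher and 15.2% lower. With siRNA.2 GBP6 joined the higher genes (5 higher, 1 lower), against 15.8% and 15.1% of all tested genes. The 4 higher and 1 lower with both compare with 11.1% and 10.2% of all tested genes. The FPKM of the groups did not overlap for 4 genes that were higher and 1 that was lower with siRNA.1 (20.7% and 17.0% of all tested genes) and for 5 and 1 with siRNA.2 (21.1% and 18.5%). The family's median log2 fold change was 0.37 for siRNA.1, against -0.00053 over all tested genes, and 0.43 for siRNA.2, against 0.0040. Both comparisons use the same control libraries, and in these bulk samples a change in the share of cells that express a gene cannot be told apart from a change in RNA per cell.

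**Figure D1:**
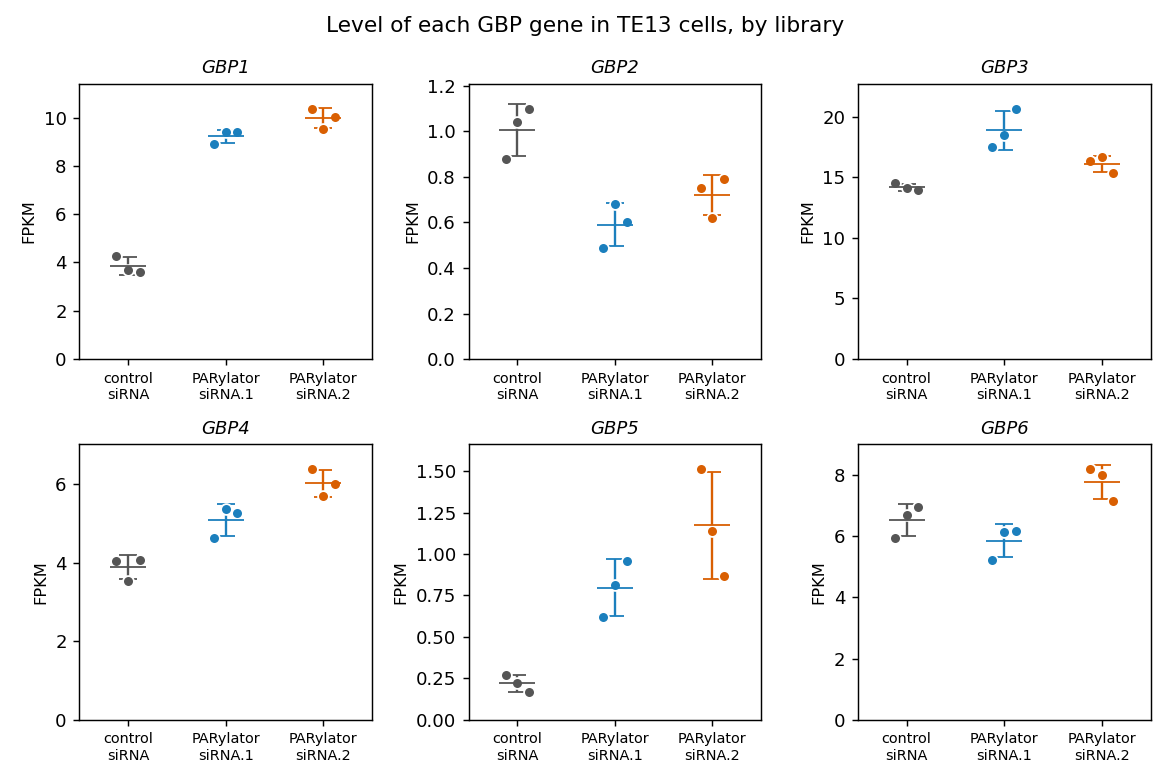
FPKM of each GBP gene (vertical axis, linear, starting at 0) in each of the 9 libraries (points) by condition, with the mean and SD of 3 libraries (bars). All 6 siRNA libraries lie above the controls for GBP1, GBP3, GBP4 and GBP5 and below them for GBP2, and for GBP6 the siRNA.2 libraries alone lie above the controls.

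GBP1, the protein that starts the coat on cytosolic bacteria, was at 4.28, 3.67 and 3.61 FPKM with control siRNA, at 8.91, 9.39 and 9.39 with siRNA.1 and at 10.37, 9.54 and 10.02 with siRNA.2. The lowest siRNA library was above the highest control library by more than the whole control range. The gene rose 2.35-fold with siRNA.1 (log2 fold change 1.24, standard error (SE) 0.078, edgeR adjusted p = 7.47e-54) and 2.57-fold with siRNA.2 (1.36, SE 0.077, edgeR adjusted p = 1.13e-67). Of all tested genes, 93.4% (siRNA.1) and 94.7% (siRNA.2) had a lower log2 fold change than GBP1. The counts were between 349 and 401 in the control libraries and between 881 and 1379 in the others.

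GBP5, a furin inhibitor held at the Golgi membrane, was at 0.27, 0.22 and 0.17 FPKM with control siRNA, at 0.62, 0.81 and 0.96 with siRNA.1 and at 1.51, 1.14 and 0.87 with siRNA.2. These were 34, 28 and 25 counts, 89, 101 and 136 counts, and 243, 178 and 160 counts, so in the control libraries this gene rested on the fewest reads of the family. Every siRNA library was above every control library, and the siRNA libraries spread more widely than those of any other member relative to their mean. The rise was 3.53-fold with siRNA.1 (log2 fold change 1.82, SE 0.21, edgeR adjusted p = 4.78e-16) and 5.26-fold with siRNA.2 (2.39, SE 0.20, edgeR adjusted p = 4.86e-30). On the log2(FPKM + 1) scale, which shrinks differences between low values, limma gave 0.55 and 0.82, both still past the threshold.

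GBP3, which joins the coat that GBP1 starts, was at 14.5, 14.12 and 13.93 FPKM with control siRNA, at 17.52, 18.46 and 20.67 with siRNA.1 and at 16.32, 16.66 and 15.4 with siRNA.2. The 3 groups did not overlap, and the siRNA.1 libraries were the highest. The gene rose by 0.39 on the log2 scale with siRNA.1 (SE 0.063, edgeR adjusted p = 1.42e-08) and by 0.17 with siRNA.2 (SE 0.063, edgeR adjusted p = 0.0224). The siRNA.2 call was lost with DESeq2, with limma and without control library 2, control library 3 or siRNA.2 library 2, with log2 fold changes between 0.14 and 0.20 and adjusted p between 0.0139 and 0.132 over 19 alternatives.

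GBP4, the coat member that brings in caspase-4, was at 4.05, 3.53 and 4.08 FPKM with control siRNA, at 4.62, 5.36 and 5.28 with siRNA.1 and at 6.38, 5.7 and 6.01 with siRNA.2. The groups stood in steps without overlap, control lowest and siRNA.2 highest. The log2 fold change was 0.36 with siRNA.1 (SE 0.090, edgeR adjusted p = 4.66e-04) and 0.62 with siRNA.2 (SE 0.088, edgeR adjusted p = 2.96e-11), and both calls held under all 19 alternatives.

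GBP2, the second furin inhibitor of the family, was at 0.88, 1.04 and 1.1 FPKM with control siRNA, at 0.49, 0.68 and 0.6 with siRNA.1 and at 0.75, 0.62 and 0.79 with siRNA.2. Every siRNA library was below every control library, and the siRNA groups overlapped. The counts were 98, 117 and 142, then 63, 75 and 76, then 107, 86 and 128. The level fell 1.75-fold with siRNA.1 (log2 fold change -0.81, SE 0.19, edgeR adjusted p = 1.51e-04) and 1.41-fold with siRNA.2 (-0.50, SE 0.18, edgeR adjusted p = 0.0225). The siRNA.2 call was lost with limma and without control library 2, control library 3 or siRNA.2 library 2, with log2 fold changes between -0.58 and -0.41 over the libraries left out and adjusted p between 0.0144 and 0.121 over 18 alternatives.

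GBP6, encoded at the far end of the cluster on the opposite strand, was at 5.93, 6.68 and 6.94 FPKM with control siRNA, at 5.23, 6.15 and 6.16 with siRNA.1 and at 8.18, 7.99 and 7.14 with siRNA.2. The siRNA.1 libraries overlapped with the controls and the siRNA.2 libraries lay above all others. The log2 fold change was -0.19 with siRNA.1 (95% confidence interval -0.36 to -0.014, edgeR adjusted p = 0.0998), which passed the threshold at -0.25 without control library 1. With siRNA.2 it was 0.24 (SE 0.085, edgeR adjusted p = 0.0194), and this call was lost with limma and without control library 1, siRNA.2 library 1 or siRNA.2 library 2, with values between 0.18 and 0.29 over the libraries left out and adjusted p between 0.0125 and 0.164 over 19 alternatives.

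**Figure D2:**
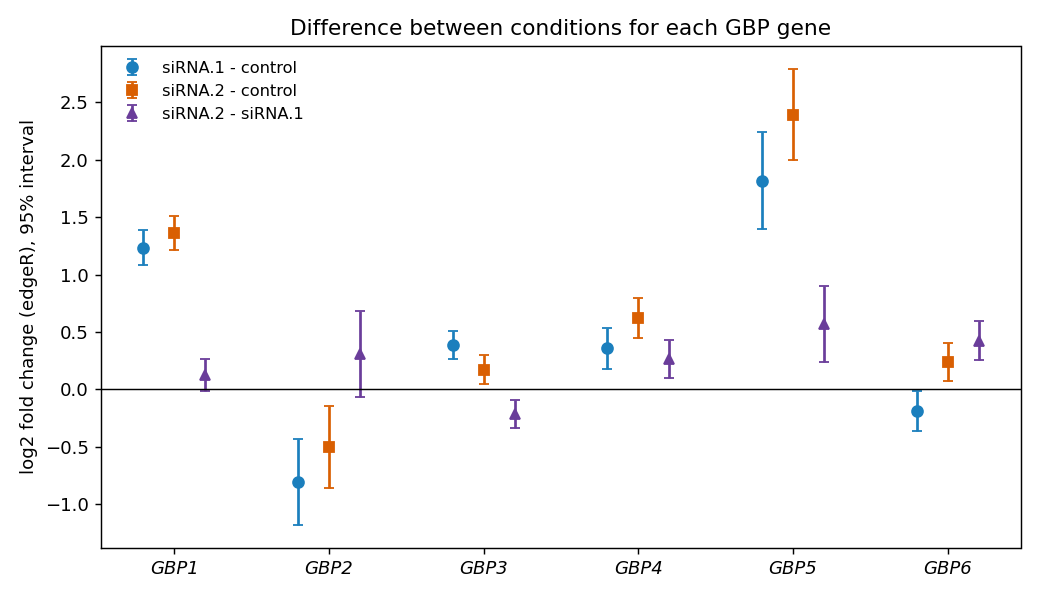
Log2 fold change by edgeR (vertical axis) with its 95% confidence interval (bars) for siRNA.1 against control (circles), siRNA.2 against control (squares) and siRNA.2 against siRNA.1 (triangles), for each GBP gene. GBP5 and GBP1 stand at 1.24 or above against control with both siRNAs, GBP2 at -0.50 or below, and GBP6 has opposite signs with the siRNAs.

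The siRNAs differed for GBP3, GBP4, GBP5 and GBP6. Tested directly, siRNA.2 against siRNA.1, the first was lower and the other 3 of the 6 genes higher with siRNA.2, where 6.10% of all tested genes were called higher and 6.07% lower. The FPKM of the siRNA groups did not overlap for GBP1, GBP4 and GBP6, higher with siRNA.2, and for GBP3, lower with it, as for 11.3% and 13.1% of all tested genes. GBP6 differed most clearly, with a log2 difference of 0.43 (SE 0.086, edgeR adjusted p = 2.47e-05) and no overlap between the groups. GBP5 was higher with siRNA.2 by 0.57 (SE 0.17, edgeR adjusted p = 0.00874), although its lowest siRNA.2 library, at 0.87 FPKM, was below the highest siRNA.1 library at 0.96. GBP4 was higher by 0.26 (SE 0.085, edgeR adjusted p = 0.0212), and GBP3 was lower with siRNA.2 by 0.21 (log2 difference -0.21, SE 0.062, edgeR adjusted p = 0.00731).

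Of these differences, that of GBP6 held with DESeq2 and without any single library, with values between 0.35 and 0.48, and was lost with limma. With limma on log2(FPKM + 0.1) 0 of the 6 genes passed (3 had an unadjusted p under 0.05), and DESeq2 called 3, losing that of GBP5. The others depended on single libraries. The GBP3 difference was lost without siRNA.1 library 3 or siRNA.2 library 3, that of GBP4 without siRNA.1 library 1, siRNA.2 library 1 or siRNA.2 library 3, and that of GBP5 without siRNA.1 library 1 or siRNA.2 library 1, with values between -0.26 and -0.14, between 0.20 and 0.30 and between 0.37 and 0.75 over the libraries left out. For GBP1 the siRNAs differed by 0.13 (95% confidence interval -0.009 to 0.27, edgeR adjusted p = 0.282) and for GBP2 by 0.31 (-0.069 to 0.68, edgeR adjusted p = 0.370).

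The makeup of the family's transcripts changed with these shifts. The summed FPKM of the 6 genes was 29.7 ± 0.354 (SD, n = 3) in the controls, 40.4 ± 2.86 for siRNA.1 and 41.8 ± 1.64 for siRNA.2. The lowest siRNA library, at 37.4, was above the highest control library at 29.9. GBP1 made up 13.0% ± 1.17 of this sum in the controls, 22.9% ± 1.02 for siRNA.1 and 23.9% ± 1.00 for siRNA.2. GBP6 made up 22.0% ± 1.87, 14.4% ± 0.548 and 18.6% ± 0.743. The share of GBP3 was 47.8%, 46.7% and 38.6%, that of GBP4 was 13.1%, 12.6% and 14.4%, that of GBP2 was 3.39%, 1.46% and 1.73%, and that of GBP5 was 0.741%, 1.96% and 2.79%.

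**Figure D3:**
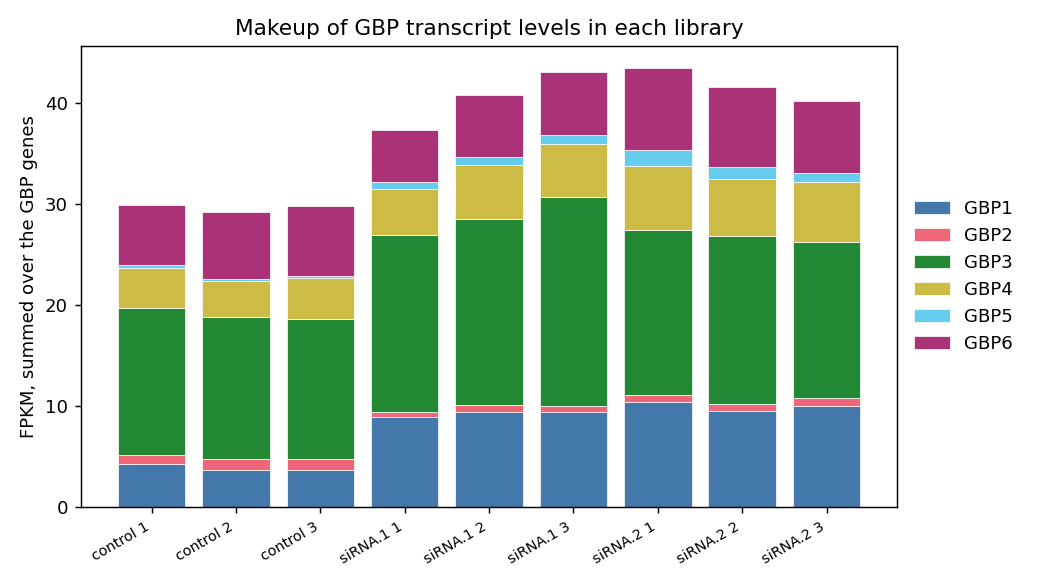
FPKM of the GBP genes stacked for each of the 9 libraries (vertical axis, FPKM summed over the genes, starting at 0), with a colour for each gene. The siRNA columns reach 37.4 to 43.5 against 29.3 to 29.9 in the controls, and the GBP1 segment takes a larger share of them.

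Levels compared between genes depend on the length they are divided by. The deposited exonic length joins the exons of all transcripts and was 6103 bases for GBP1 against 2883 for its canonical transcript, a ratio of 2.12, while the ratio was 1.41 for GBP3, 1.77 for GBP2, 1.20 for GBP5 and 1 for GBP4 and GBP6. Per canonical length, GBP1 moved above GBP6 and GBP4 in the control libraries, to 8.16 ± 0.792 FPKM (SD, n = 3), and made up 20.1% of the family in the controls, 33.1% for siRNA.1 and 35.0% for siRNA.2. The siRNA.2 libraries of GBP1 then overlapped with those of GBP3 (21.1 ± 0.878 against 22.7 ± 0.920). GBP2 stood above GBP5 with siRNA.1 on this length (1.04 ± 0.164 against 0.948 ± 0.204) and below it with siRNA.2 (1.27 ± 0.154 against 1.40 ± 0.382). Libraries of GBP2 and GBP5 overlapped with each siRNA, so their order there depends on the length used. The edgeR and DESeq2 fold changes of a gene between conditions do not depend on this length. It does enter the limma alternatives, which add a fixed amount to the FPKM, and the filter on mean FPKM.

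The canonical transcripts of the 6 genes shared few long stretches with other genes. Their other transcripts, whose exons are also part of the deposited length, were not searched for in this way. Of all stretches of 100 bases in the canonical transcript of GBP1, 1.98% were also found in the transcripts of another gene, the pseudogene GBP1P1, and the share was 0% for GBP2, GBP3, GBP5 and GBP6 and 0.0993% for GBP4. At 50 bases it was 14.0% for GBP1 and between 0.690% and 4.33% for the others. The read length and the handling of reads with several matches were not given in the sources used here. GBP1P1, which lies beyond GBP6, shared 34.8% of its stretches of 100 bases with GBP1 or with another annotated gene of its own name, and had log2 fold changes of -0.12 (edgeR adjusted p = 0.802) and 0.09 (edgeR adjusted p = 0.850).

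GBP7, which lies between GBP2 and GBP4 and overlaps GBP2 on the same strand, had 0 counts in all 9 libraries, which allows at most 0.0547 to 0.0804 FPKM if 3 counts are taken as the limit (counting error only). Of the stretches of 100 bases in its canonical transcript, 22.5% were also in transcripts of GBP2 other than the canonical one. The limit holds only for reads that the counting could assign to GBP7. Of the antisense genes over the cluster, ENSG00000284734 across GBP4 had between 0 and 6 counts and those across GBP2 and GBP5 had 0. Whether the counting used the strand was not given in the sources used here.

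The tested genes between and beside the GBPs did not move as GBP1 and GBP5 did. With siRNA.1, GBP3, GBP4 and GBP6 (0.39, 0.36 and -0.19) lay within the range of these genes, -0.36 to 0.51. With siRNA.2 that range was -0.28 to 0.10, and no member of the family lay within it. Of the 7 tested neighbours, 2 passed edgeR's test with siRNA.1 and 1 with siRNA.2, each lower than with control siRNA. Over all tested genes, 15.2% and 15.1% were called lower. RBMXL1, an RNA-binding protein gene next to GBP3, was at -0.23 with siRNA.1 (edgeR adjusted p = 0.0444), a call lost under 13 of 19 alternatives. PTGES3P1, a pseudogene between GBP1 and GBP2, was at -0.36 with siRNA.1 (edgeR adjusted p = 0.0255), lost with limma and without control library 1, siRNA.1 library 1 or siRNA.1 library 3. LRRC8B, which encodes a channel subunit and lies on the GBP6 side, was at -0.28 with siRNA.2 (edgeR adjusted p = 0.00191) and 0.01 with siRNA.1. GTF2B, a general transcription factor, and KYAT3, an aminotransferase, did not pass with either siRNA, with log2 fold changes of 0.18 and 0.03 with siRNA.1 and 0.10 and 0.04 with siRNA.2. A gene without a symbol, ENSG00000286548, was at 0.51 and -0.07 and did not pass either.

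**Figure D4:**
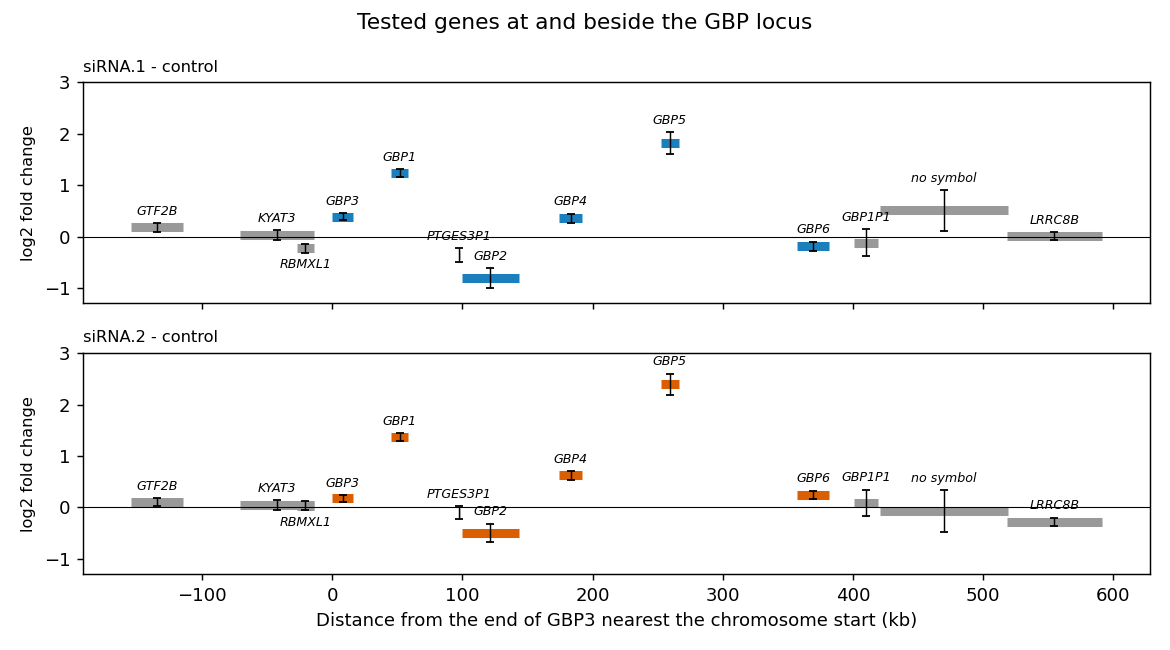
Log2 fold change by edgeR (vertical axis) with its standard error (thin bars) for each tested gene at the GBP cluster, drawn from its start to its end in kilobases from the outer end of GBP3 (horizontal axis), for siRNA.1 (top) and siRNA.2 (bottom). The GBP genes are coloured and their neighbours grey. GBP1 and GBP5 stand out from the grey genes, which lie between -0.36 and 0.51.

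Upstream of the family, interferon genes of the β and λ types were higher and interferon-γ was not detected. Of 10 interferon genes, 6 were tested and 4 rose with both siRNAs, as did 11.1% of all tested genes. IFNL1 went from a mean of 0.50 ± 0.221 FPKM (SD, n = 3) to 4.18 ± 1.74 and 4.35 ± 0.279, log2 fold changes of 3.01 and 3.08 for siRNA.1 and siRNA.2. IFNL3 rose by 3.84 and 4.08. IFNB1 had 1 to 2 counts in the control libraries, 4 to 13 under siRNA.1 and 14 to 28 under siRNA.2, which is at least 3.00-fold and 5.55-fold higher when each control library is set at 3 counts. With its control libraries set in the same way, IFNL2 was 11.8-fold and 10.5-fold higher. IFNG had 0 counts in all 9 libraries, which allows at most 0.110 to 0.162 FPKM.

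The receptor and kinase genes changed little and in both directions. Of 9, 1 was higher and 3 lower with siRNA.1 (15.0% and 15.2% of all tested genes). With siRNA.2, 1 was higher and 4 lower (15.8% and 15.1% of all tested genes). The medians of the 9 genes were -0.09 and -0.15. With limma 1 of them was lower with each siRNA and none higher. The lower genes numbered 1 with siRNA.1 without control library 3 or siRNA.1 library 2, and 2 with siRNA.2 without control library 1 or siRNA.2 library 1. IFNGR1, a chain of the interferon-γ receptor, was at 0.16 with both siRNAs (edgeR adjusted p = 0.0231 and 0.0287), calls lost with DESeq2 and limma, without control library 1 or 3, and, for each siRNA, without its own library 1 (for siRNA.2 also library 3). TYK2, the kinase of the β and λ receptors, fell by 0.42 and 0.47. IL10RB, the shared chain of the λ receptor, fell by 0.42 and 0.58, the first of these lost with DESeq2, limma and without control library 2, control library 3 or siRNA.1 library 2.

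The transcription factors and coactivators of the interferon response moved unequally. This list holds the STAT and IRF factors as well as NLRC5, which binds neither of the elements above, and BATF family members. Of 10 tested, 4 were higher and 2 lower with siRNA.1, and 3 were higher and 2 lower with siRNA.2. With siRNA.1, 1 was lower with DESeq2, with limma and without control library 1, control library 2 or siRNA.1 library 3. IRF1 was at 6.59, 6.87 and 6.8 FPKM with control siRNA and between 5.44 and 5.81 in all siRNA libraries, and fell by 0.31 (edgeR adjusted p = 3.64e-06) and 0.24 (edgeR adjusted p = 5.47e-04). STAT2 rose by 0.33 and 0.22, the second lost with limma. IRF9 rose by 0.50 with siRNA.1 and was at 0.22 with siRNA.2 (edgeR adjusted p = 0.110). NLRC5, the activator of MHC class I genes, rose by 0.93 and 0.58, and BATF2 by 0.80 and 0.85.

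Genes known as targets of interferon-γ moved mostly upward. Of 15, 12 were higher and 1 lower with siRNA.1 and 11 were higher and 1 lower with siRNA.2, with medians of 0.87 and 0.83. HLA-DRA, an MHC class II chain, went from 0.233 ± 0.0929 FPKM (SD, n = 3) to 4.20 ± 0.293 and 3.84 ± 0.554, and the chemokine gene CXCL10 from 7.73 ± 1.94 to 85.3 ± 4.74 and 104 ± 9.48. CXCL11, another chemokine gene, rose by 1.52 and 1.85 on the log2 scale, and IDO1, which degrades tryptophan, by 2.22 and 2.39. Against these, the log2 fold changes of GBP3, GBP4, GBP2 and GBP6 lay below the median of the list with both siRNAs. The gene that fell, named after its value was seen, was PSMB10, a subunit of the immunoproteasome, at -0.41 and -0.48, a call lost with limma and, for siRNA.1, without control library 3 or siRNA.1 library 1.

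Of 8 negative regulators, 1 was higher and 2 lower with siRNA.1 (15.0% and 15.2% of all tested genes). With siRNA.2, 1 was higher and 4 lower (15.8% and 15.1% of all tested genes). The 4 became 2 with limma or without siRNA.2 library 3. USP18, which shuts off type I interferon receptors, rose by 2.34 and 2.02. SOCS3 fell by 0.22 and 0.35, the first lost without control library 1, control library 3 or siRNA.1 library 3, and the phosphatase gene PTPN1 fell by 0.31 and 0.24.

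**Figure D5:**
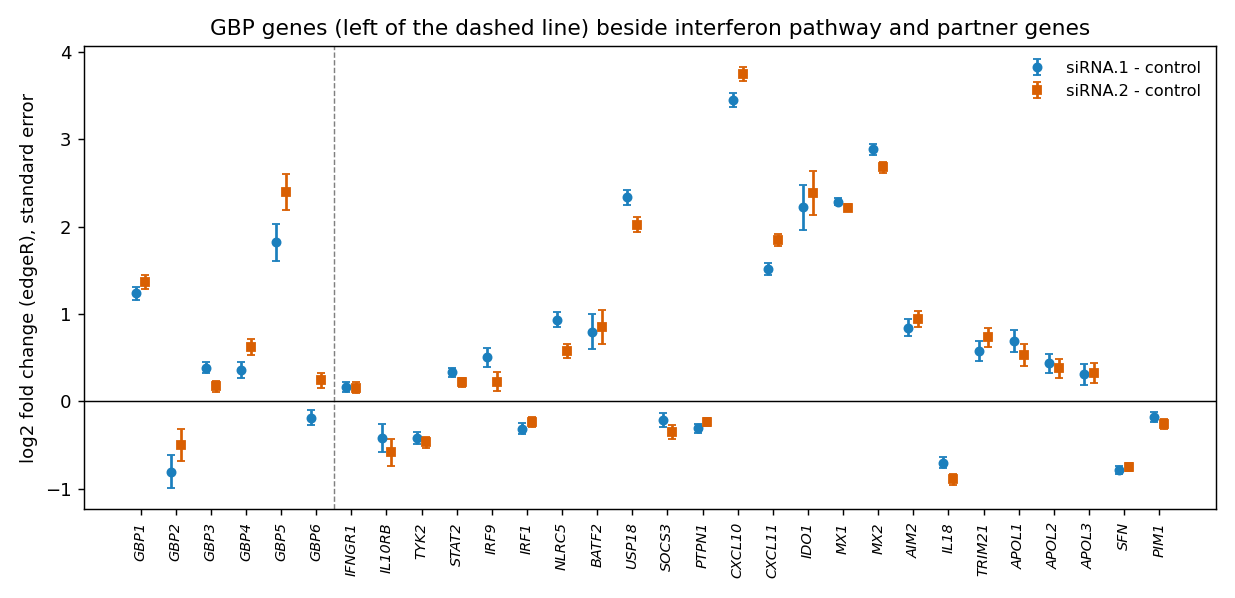
Log2 fold change by edgeR against control siRNA (vertical axis) with its standard error (bars) for siRNA.1 (circles) and siRNA.2 (squares), with the GBP genes to the left of the dashed line and genes of the interferon pathway and of GBP partners to its right. GBP1 lies at 1.24 and 1.36 and GBP5 at 1.82 and 2.39, and IRF1, TYK2, IL18 and SFN lie below 0 with both siRNAs.

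Other large GTPases did not move as a class. Of 17 tested relatives, which include the dynamins, atlastins, mitofusins and EHD proteins, 4 were higher and 6 lower with siRNA.1 and 5 were higher and 4 lower with siRNA.2, with medians of -0.10 and -0.03. The antiviral GTPases MX2 and MX1 rose by 2.89 and 2.28 with siRNA.1 and by 2.68 and 2.22 with siRNA.2, above every GBP gene with siRNA.1. EHD3, a membrane-remodelling ATPase, rose by 0.84 and 0.39, and its relative EHD2 fell by 0.31 and 0.28.

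Partners of the GBPs at the membranes of pathogens rose in part. Of 12 tested, 8 were higher and 1 lower with siRNA.1 and 6 were higher and 2 lower with siRNA.2. With limma 5 were higher with siRNA.1 and the lower calls were lost with both. The lower call with siRNA.1 was also lost without control library 1 or siRNA.1 library 3, and 1 of the 2 with siRNA.2 without control library 1, control library 3, siRNA.2 library 1 or siRNA.2 library 2. TRIM21, a cytosolic antibody receptor, rose by 0.57 and 0.73, and the apolipoprotein L genes APOL1 and APOL2 by 0.69 and 0.44 with siRNA.1 and by 0.53 and 0.38 with siRNA.2. APOL3, whose protein lyses bacteria that GBP1 has coated, was at 0.31 (edgeR adjusted p = 0.0350) and 0.33 (edgeR adjusted p = 0.0211), both lost with DESeq2, limma and without control library 3, and also without siRNA.1 library 1, siRNA.1 library 3 or siRNA.2 library 2.

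Calls among inflammasome and pyroptosis genes went in both directions, as over all tested genes. Of 15 tested, 3 were higher and 5 lower with siRNA.1 (15.0% and 15.2% of all tested genes). With siRNA.2, 2 were higher (1 with limma) and 2 lower (15.8% and 15.1% of all tested genes). AIM2, a sensor of cytosolic DNA whose activation by bacteria depends on GBPs, rose by 0.84 and 0.94, IL18, a cytokine gene, fell by 0.70 and 0.89, and GSDME, which forms pores, fell by 0.37 and 0.36. CASP4, the caspase that GBP4 recruits, was named for this role after its value was seen. It rose by 0.34 with siRNA.1 and was at 0.12 with siRNA.2 (edgeR adjusted p = 0.125).

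Of the 6 enzymes that attach and process prenyl groups, 2 were lower with siRNA.1 (1 with limma and without control library 3 or siRNA.1 library 3), and with siRNA.2 edgeR, DESeq2 and limma called 0 of them, with 0 at an unadjusted p under 0.05. Their median log2 fold change was -0.02 for siRNA.1 and 0.06 for siRNA.2. Of 5 proteins that bind a GBP or are inhibited by one, 1 was higher and 3 lower with siRNA.1 (1 lower with limma, and 2 higher without control library 1 or siRNA.1 library 1), and the 4 that passed with siRNA.2 were lower. Over all tested genes, 15.0% were called higher and 15.2% lower with siRNA.1, and 15.8% and 15.1% with siRNA.2. SFN, the 14-3-3σ protein that holds phosphorylated GBP1 in the cytosol, went from 305 ± 7.70 FPKM (SD, n = 3) to 180 ± 2.30 and 182 ± 2.75. PIM1, the kinase that phosphorylates GBP1, fell by 0.18 and 0.26, the first lost with limma and without siRNA.1 library 2. ACTB, the gene of the actin to which GBP1 binds, fell by 0.15 and 0.20, the first lost with limma. FURIN, the protease that GBP2 and GBP5 inhibit, was likewise named after its value was seen, and rose by 0.39 with siRNA.1 and was at 0.01 with siRNA.2.

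Genes with the pattern most like that of a GBP were sought by the root mean square difference of log2(FPKM + 0.1), centred on the control mean, over the 9 libraries. For GBP1 the genes IFI44 (0.084) and OAS3 (0.099) were among the closest of 11863. OAS3 makes the 2-5A messenger of the antiviral response. For GBP3 the closest were KCMF1 (0.045), a ubiquitin ligase gene, TMEM63A (0.050) and the kinase gene NUAK2 (0.052). For GBP4 they were FOXN2 (0.063), ZSCAN30 (0.082) and POFUT1 (0.086), and for GBP6 FANCB (0.073), DPAGT1 (0.083) and POPDC3 (0.085). GBP2 and GBP5 had a mean under 1 FPKM and were not compared.

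Blood cells also express GBPs. The summed FPKM of their markers was 5.86 to 6.67 in the controls, 8.22 to 9.27 for siRNA.1 and 7.85 to 9.35 for siRNA.2. CD3E, CD2, MS4A1 and CD79A averaged under 0.1 FPKM and were not tested. Of the blood cell markers that were tested, 4 were higher and 1 lower with both siRNAs (11.1% and 10.2% of all tested genes). LYZ and FCER1G rose most in FPKM, from means of 0.317 and 0.19 to 2.79 and 1.07 (siRNA.1) and 3.08 and 1.47 (siRNA.2). The mean of PTPRC, another that rose, was 0.153 FPKM with siRNA.1 and 0.147 with siRNA.2. The marker that fell, LAPTM5, was also the only marker of blood cells with at least 1 FPKM in the control libraries. The B-cell marker MS4A1 had 0 counts in every library, and CD3E, CD2 and CD79A had at most 4 counts in any. The summed markers of endothelium went from 1.20 to 1.56 FPKM with control siRNA to 0.71 to 1.00 and 0.50 to 0.57, and those of fibroblasts from 2.23 to 2.52 to 1.49 to 1.62 and 1.47 to 1.71. The summed squamous markers went from 637 to 643 FPKM to 533 to 561 and 523 to 547, while 3 of the 10 were higher and 5 lower with both siRNAs. Without KRT5, which went from a mean of 142 FPKM to 40.0 and 55.8, the sum was 492 to 503, 496 to 520 and 469 to 488. The part of these shifts, and of the mitochondrial share, in the GBP results was not tested.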

How the data were processed

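RNA-seq was measured in 9 libraries of TE13 cells, 3 each with control siRNA, PARylator siRNA.1 and PARylator siRNA.2, grouped by their labels. Per the methods, poly(A)+ RNA was sequenced on an Illumina NovaSeq system, reads were checked with FastQC, aligned with STAR to GRCh38 and counted per gene with featureCounts. Versions, strand setting and annotation release were not given in the sources used here. The table deposited by the authors holds the raw read count of each gene and its FPKM, which equalled the count divided by exonic length and library total to within 0.0051.

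Counts were scaled by TMM and tested with edgeR 4.0.16 in R 4.3.3 (quasi-likelihood test, 1 fit of the 3 groups, no covariates) over the 21397 genes averaging 0.1 FPKM or more, and p-values were adjusted by Benjamini-Hochberg, with 0.05 as the limit. Standard errors were derived from the F statistic, as |log2 fold change| over its square root. The siRNA groups were compared with control siRNA and with each other. Alternatives used DESeq2 1.42.0, limma 3.58.1 on log2(FPKM + 0.1), + 1 or + 0.01, other scalings and filters, a fold threshold, a replicate block and each library left out. The scripts were tested on simulated data. Motifs, lengths and shared stretches were computed in Python 3.11.15 from RefSeq promoters and GENCODE release 44. Figures were drawn with matplotlib 3.10.9.

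The GBP genes and the gene lists were chosen with earlier results of these data known, and the lists were written from recall. Named in the text are all GBP genes, up to 4 genes per list that passed with both siRNAs in the same direction by largest mean change, the interferon genes IFNG, IFNB1 and IFNL1, the factors STAT2, IRF1 and IRF9, MX1, LINC00885, the nearest 3 tested genes on each side, and the 3 genes most like each GBP gene with a mean of at least 1 FPKM. PSMB10, CASP4, FURIN and the cell type markers given singly were named after their values were seen. Items withheld from the text are not reported here, in the lists or among the like genes.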

Additional observations from a re-analysis of the deposited data

Results flagged for a closer look

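The effects of the siRNAs differed for 4 GBP genes by the direct test of siRNA.2 against siRNA.1. The log2 difference was 0.43 for GBP6, 0.57 for GBP5, 0.26 for GBP4 and -0.21 for GBP3. GBP6 is the member whose effects against control siRNA also had opposite signs, -0.19 and 0.24.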

How the results depend on the processing

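The rises of GBP1, GBP4 and GBP5 with both siRNAs, the rise of GBP3 with siRNA.1 and the fall of GBP2 with siRNA.1 passed under every alternative in which the gene was tested, apart from a fold threshold. With a mean of at least 1 FPKM required, GBP2 and GBP5 were not in the fit, which left 0 GBP genes lower with siRNA.1 and 0 with siRNA.2. Also requiring a log2 change of 1 or more in size left GBP1 and GBP5 (2 higher, 0 lower) in each comparison with control siRNA, and 0 higher and 0 lower between the siRNAs. With limma, at each of the 3 pseudocounts, 3 genes were higher and 0 lower with siRNA.2 against control siRNA, and 0 were higher and 0 lower between the siRNAs, where 34.3% of all calls of limma on log2(FPKM + 0.1) were higher with siRNA.2 against 50.2% with edgeR, and the cause was not tested. With each library left out in turn, 4 to 4 genes were higher and 1 to 2 lower with siRNA.1, 3 to 5 were higher and 0 to 1 lower with siRNA.2, and 1 to 3 were higher and 0 to 1 lower between the siRNAs. Signs turned among uncalled genes of the locus only, where the values with a library left out ranged from -0.36 to 0.26 and from -0.15 to 0.46 for GBP1P1 with siRNA.1 and siRNA.2, from -0.10 to 0.11 and from -0.056 to 0.098 for KYAT3, from -0.021 to 0.072 for LRRC8B with siRNA.1, from -0.0067 to 0.089 for RBMXL1 with siRNA.2 and from -0.37 to 0.12 for ENSG00000286548 with siRNA.2. The canonical length, an alternative chosen after seeing the data, moved 15 of 18 shares of the family by more than their SD.

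The libraries carry replicate numbers shared between groups, but same-numbered libraries did not deviate together (correlations between -0.19 and 0.11 over 11156 genes). Differently numbered ones reached 0.18. With 3 libraries per group these values cannot settle whether the numbers pair the libraries. With the replicate number as a block, 4 GBP genes were higher and 1 lower with siRNA.1, 5 were higher and 1 lower with siRNA.2, and 3 were higher and 1 lower between the siRNAs, as without it. The block lowered the count of receptor and kinase genes that were lower with siRNA.2 from 4 to 2.

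GBP5, with 25 to 34 counts in the control libraries, GBP2, with 98 to 142, and LINC00885, with 6 to 12, were limited by depth. The same holds for IFNL1 (3 to 8 control counts), IFNL3 (0 to 5), HLA-DRA (3 to 6), IFNB1 (1 to 2) and IFNL2 (0 to 1).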
